A study of Homo sapiens with 6 samples.

Results

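The interferon-stimulated and double-stranded RNA sensing genes were a list of 43 genes fixed by name, and all 43 were found among the 58288 gene identifiers of the count table. The list held 10 genes grouped as sensors and their adaptor, among them the RNA-editing enzyme ADAR, and 5 STAT and IRF regulators. It also held 10 genes of ISG15 conjugation, ubiquitin ligation and ADP-ribosylation, 4 IFIT genes, 3 IFITM genes and 11 other effectors. Of the 43 members, 33 passed the filter on low counts and were among the 14415 genes tested, and 10 did not pass.

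The cells were T24, a cell line from a human bladder carcinoma, and each of 3 groups held 2 libraries labelled as biological replicates. NC cells received a control siRNA, and the other groups, labelled siRNA1 and siRNA2, are taken here to be the study's si-circ235-1 and si-circ235-2, siRNAs directed at the back-splice junction of circ235, a circular RNA of the gene CCNY. Polyadenylated RNA was sequenced without strand information, so the circular RNA itself was not measured. All groups had thus been transfected with a short double-stranded RNA, and no untransfected or mock-transfected library was analysed here, so a response shared by all 3 siRNAs has no baseline. In bulk RNA, fewer responding cells and less RNA per cell cannot be told apart.

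Cells recognise double-stranded RNA in the endosome through TLR3 and in the cytoplasm through RIG-I and MDA5, which signal through MAVS to the transcription factors IRF3 and IRF7. The interferon that is then secreted acts through its receptors and the JAK kinases on a complex with STAT2 and IRF9, which binds the interferon-stimulated response element in the promoters of the effector genes. A siRNA is a short duplex, and transfected siRNAs can engage these sensors depending on their sequence, ends and carrier. The genes of this list serve therefore as a check on such a response in knockdown experiments.

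The libraries held 15373992 to 19912893 counts, and 3 counts corresponded to 0.143 to 0.21 CPM (counts relative to the library total after scaling by the TMM factors of edgeR). The epithelial markers KRT7, KRT8 and KRT18 stood between 619 and 2307 CPM in the 6 libraries. In contrast, UPK3A and KRT20 had 0 counts in every library and CDH1, GATA3 and the other uroplakins stayed at or below 1.12 CPM. FOXA1 and EPCAM were low, at 1.28 to 3.42 CPM, whereas PPARG stood at 22.6 to 51.1 CPM and was called higher with both siRNAs (log2 fold change 0.90 and 1.13, adjusted p 0.0264 and 0.0031). Among the immune markers, PTPRC, CD3E, MS4A1, LYZ, CLEC4C and LILRA4 had 0 counts in all libraries. ITGAM, CD4, CD8A and CD68 had 0 to 14 counts per library, and the endothelial marker CDH5 ranged from 0.328 to 2.29 CPM. CD14 was the only marker of this list called with si-circ235-1, with 2.82 and 2.87 CPM in NC, 11.0 and 9.94 CPM under si-circ235-1 and 2.12 and 1.72 CPM under si-circ235-2. The summed level of the 15 immune and endothelial markers was 4.16 to 4.46 CPM in NC, 12.5 to 13.7 CPM under si-circ235-1 and 4.02 to 4.72 CPM under si-circ235-2.

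The response element is the sequence feature by which these genes are usually recognised, and it is shown here for IFIT1, a textbook target, and for the 5 members with such an element whose level differed from NC under si-circ235-2. These 5 were picked after their values were seen. RefSeq promoter windows of GRCh38.p14, from 250 bases before to 50 bases after each start, were searched for the core GAAANNGAAA and, on the other strand, TTTCNNTTTC. The stretches are written 5′ to 3′ on the strand of the gene, each of 30 bases, with the core in capitals.
IFIT1, chr10:89392504-89392533, plus strand, bases -119 to -90 from the start: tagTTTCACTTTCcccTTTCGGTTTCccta
ISG15, chr1:1013377-1013406, plus strand, bases -120 to -91: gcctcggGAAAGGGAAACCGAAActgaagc
IFITM3, chr11:320884-320913, minus strand, bases -53 to -24: gGAAAAGGAAActgttgaGAAACCGAAAct
IFI6, chr1:27672329-27672358, minus strand, bases -166 to -137: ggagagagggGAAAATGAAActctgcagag
OAS3, chr12:112938321-112938350, plus strand, bases -153 to -124: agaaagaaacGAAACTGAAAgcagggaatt
ISG20, chr15:88638937-88638966, plus strand, bases -79 to -50: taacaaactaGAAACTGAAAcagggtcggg

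IFIT1, ISG15 and IFITM3 each showed a pair of cores within these 30 bases, which in ISG15 overlapped each other. IFI6 held 3 cores in its window and OAS3 held 2, of which 1 is shown for each. Of the 35 members with a promoter window, 23 (65.7%) held the core, against 1195 of the 27305 genes with a window (4.38%). The gamma-activated site TTCNNNGAA, which reads alike on both strands and binds STAT dimers, was found in 10 of the 35 members (28.6%) and in 9.38% of all genes. The cores lay mostly within the last 200 bases before the start, as the map of motif positions shows. DHX58, OAS2, OASL, IRF3, IRF7, USP18, IFIT2 and IFITM2 were not among the windows.

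**Figure D1:**
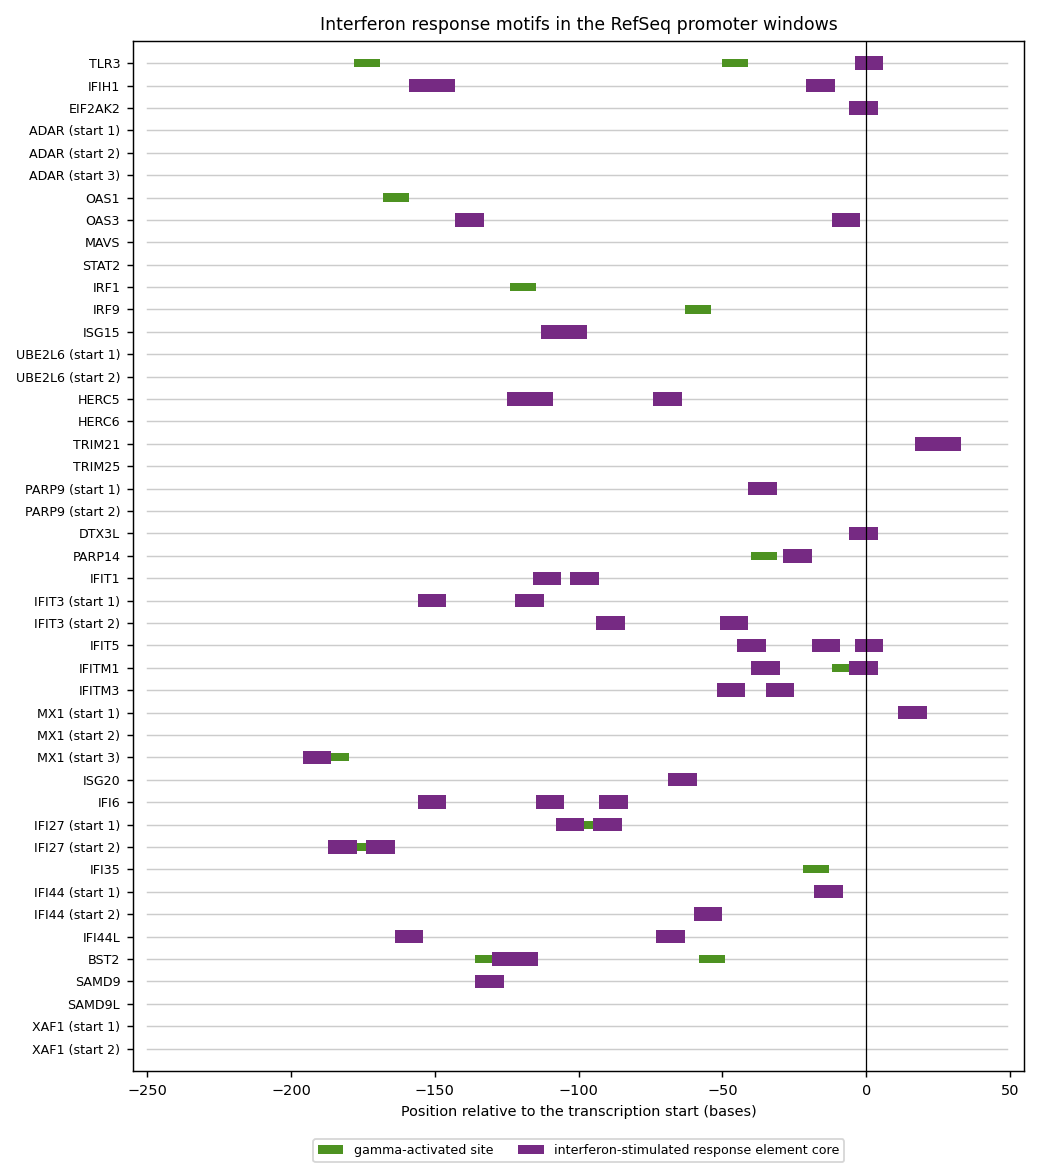
Positions of the interferon-stimulated response element core (purple) and of the gamma-activated site (green) in the RefSeq promoter windows of 35 members, in bases from the transcription start (vertical line), with 1 row for each start. The core was found in 23 of the 35 members, and windows of ADAR, MAVS, STAT2, TRIM25 and IFI35 held none.

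The members spanned a wide range of expression in NC cells. By mean level in NC, 9 members stood at 50 CPM or more, 11 between 10 and 50 CPM, 12 between 1 and 10 CPM, and 11 below 1 CPM. Divided by the length of the longest annotated transcript, IFITM3, a membrane protein that restricts virus entry, stood highest at 644 CPM per kb. ISG15, the ubiquitin-like modifier, followed at 79.6 CPM per kb, then IFI35 at 67.3 and IRF3 at 54.6. At the other end, MX1 stood at 0.0372 CPM per kb and XAF1 at 0.00843, and IFI44L had no count in NC. The members therefore included constitutively abundant genes and genes that were nearly silent in all groups. IFIT1, OAS1, MX1, IFI27, IFI44, IFI44L and XAF1 were all among the lowest 16 in NC, at or below 0.575 CPM per kb. Other interferon-stimulated members stood high, with IFITM3, ISG15 and IFI6 at ranks 1, 2 and 6.

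**Figure D2:**
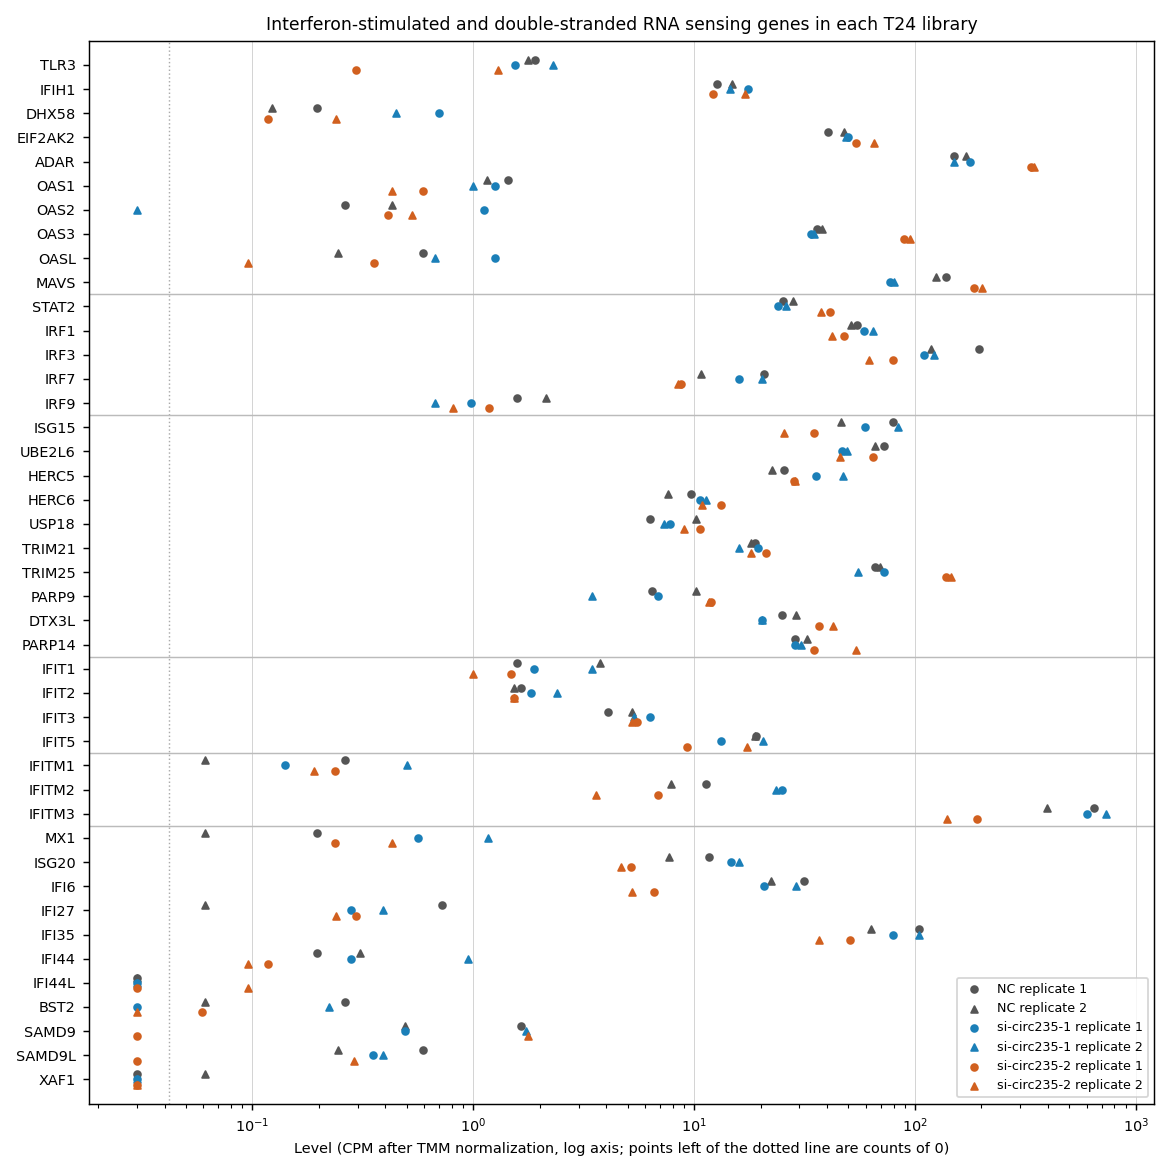
Level of each of the 43 members (rows, grouped by role) in the 6 libraries, in CPM after TMM normalization on a log axis, with circles for replicate 1 and triangles for replicate 2, and counts of 0 drawn left of the dotted line. MX1 and XAF1 lie below 1.2 CPM in every library, and the si-circ235-2 points lie apart from the others for OAS3, ADAR and TRIM25 (right) and for IFITM3 and IFI6 (left).

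Each siRNA was compared with NC, and the siRNAs with each other, by the quasi-likelihood test of edgeR, and a gene counts as called where its p, after Benjamini-Hochberg adjustment over the 14415 genes, is under 0.05. With si-circ235-1, 1 member was called higher (IFITM2) and 1 lower (MAVS) of the 33 tested, that is 3.03% each, against 2.24% higher and 3.64% lower among all genes tested. A further 4 members had an unadjusted p under 0.05 without being called, giving 6 in all, against 3644 of the 14415 genes tested. The median log2 fold change of the 33 members was 0.03, and that of all genes was -0.03. With si-circ235-2, 4 members were called higher (OAS3, ADAR, TRIM25 and MAVS) and 6 lower (IFI6, IFITM3, IRF3, ISG15, ISG20 and IFI35). These were 12.1% and 18.2% of the members, against 15.7% higher and 15.7% lower among all genes, with a median of -0.05 against -0.00. The share of members called was thus near the background in both comparisons. Without TMM factors, 9 members were called higher and 4 lower with si-circ235-2, where the median of all genes lay at 0.25 and that of the members at 0.21. Both comparisons used the same NC libraries.

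**Figure D3:**
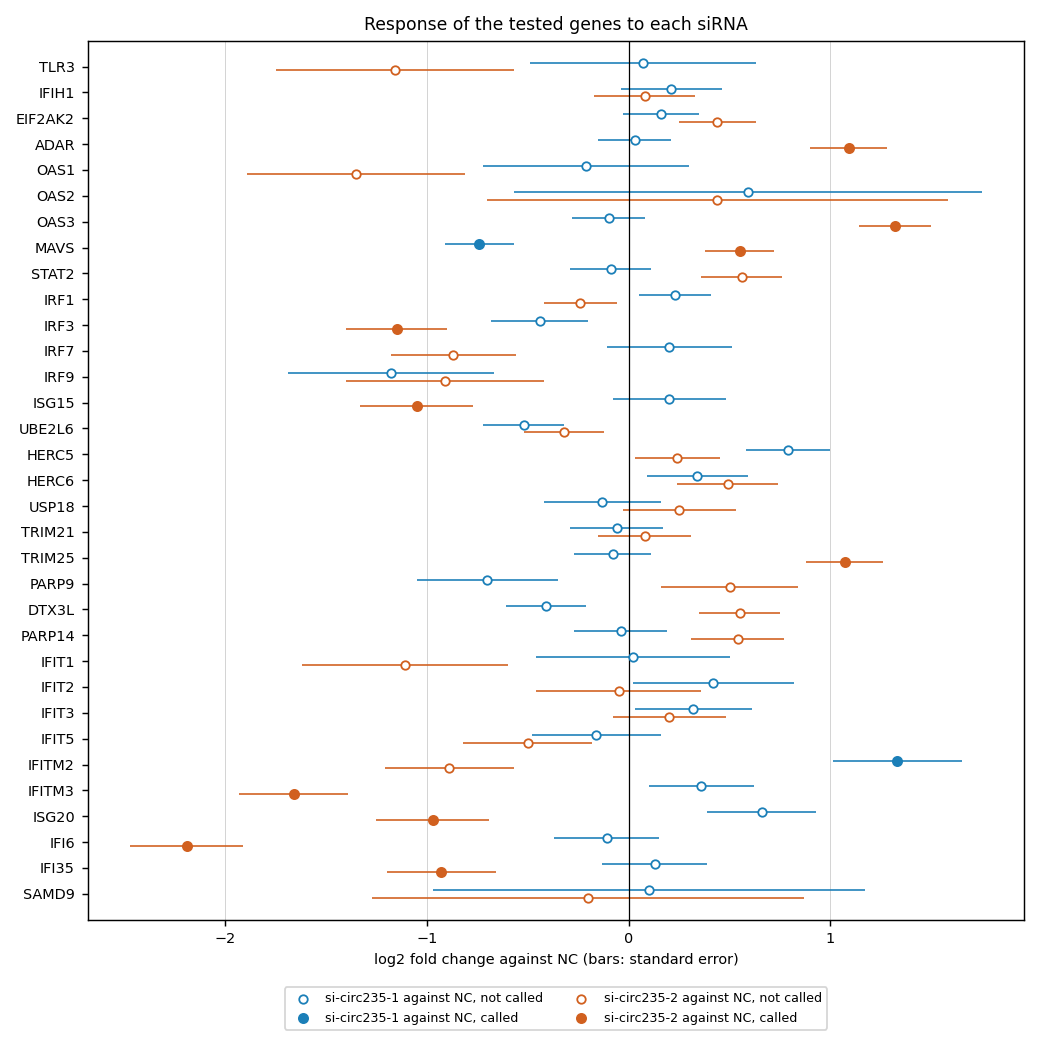
Log2 fold change against NC of the 33 tested members with si-circ235-1 (blue) and si-circ235-2 (orange), with bars of 1 standard error and filled points for called genes. MAVS was called on opposite sides of 0, at -0.74 and 0.55, IFITM2 was called higher with si-circ235-1, and the largest change was that of IFI6 at -2.19 with si-circ235-2.

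In the group of double-stranded RNA sensors and their adaptor, 8 genes were tested, among them the editing enzyme ADAR. With si-circ235-2, 3 were called higher (OAS3, ADAR and MAVS) and 0 lower. These were 37.5% and 0%, against 15.7% in each direction among all genes tested. With si-circ235-1, only MAVS was called, as lower (12.5%, against 3.64% of all genes tested). OAS3, a synthetase that makes the 2-5A activator of RNase L (chr12:112938352-112973249), stood at 35.9 and 37.9 CPM in NC, 33.9 and 34.9 CPM under si-circ235-1, and 89.0 and 95.2 CPM under si-circ235-2. Both si-circ235-2 libraries lay far above the other 4. The log2 fold change with si-circ235-2 was 1.32 (SE 0.18, adjusted p = 0.00179), a 2.50-fold rise, and with si-circ235-1 it was -0.10 (SE 0.18, adjusted p = 0.773). ADAR, which edits adenosines in double-stranded RNA (chr1:154582057-154628013), stood at 151 and 171 CPM in NC, 178 and 150 CPM under si-circ235-1, and 336 and 346 CPM under si-circ235-2. Again only the si-circ235-2 libraries stood apart, with a rise of 1.09 (SE 0.19, adjusted p = 0.00322). OAS1, a second synthetase of the family, was low throughout, at 1.44 and 1.16 CPM in NC, 1.26 and 1.00 CPM under si-circ235-1, and 0.59 and 0.43 CPM under si-circ235-2. Its level under si-circ235-2 lay below NC in both libraries, in the other direction from OAS3, but the log2 fold change of -1.35 (SE 0.54) was not called (adjusted p = 0.0807). OAS2 had 0 to 16 counts per library, and both values at the ends of that range came from si-circ235-1.

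MAVS, the mitochondrial adaptor of RIG-I and MDA5 (chr20:3846799-3876123), was the only member called in both comparisons with NC. It stood at 139 and 125 CPM in NC, 77.5 and 80.6 CPM under si-circ235-1, and 186 and 201 CPM under si-circ235-2. The 3 groups did not overlap, with si-circ235-1 lowest and si-circ235-2 highest. MAVS fell by 0.74 with si-circ235-1 (SE 0.17, adjusted p = 0.0362) and rose by 0.55 with si-circ235-2 (SE 0.17, adjusted p = 0.0340). The fall was no longer called when any of the 4 libraries compared was left out, at -0.66 and -0.78 without NC replicate 1 or 2 (adjusted p 0.135 and 0.102) and at -0.72 and -0.77 without si-circ235-1 replicate 1 or 2 (0.112 and 0.218). The rise was no longer called without any 1 of the 6 libraries (log2 fold change 0.62 and 0.48 without NC replicate 1 and 2, 0.54 without either si-circ235-1 library, 0.60 and 0.49 without si-circ235-2 replicate 1 and 2), and it became -0.12 (SE 0.14, adjusted p = 0.577) after each library was corrected for a smooth dependence on transcript length and GC content.

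The other genes of this group were not called by edgeR, or did not pass the filter. IFIH1, which encodes MDA5, stood at 12.7 and 14.9 CPM in NC, 17.5 and 14.5 CPM under si-circ235-1, and 12.2 and 17.0 CPM under si-circ235-2. The groups overlapped, and the log2 fold changes were 0.21 (SE 0.25) and 0.08 (SE 0.25), with adjusted p-values of 0.649 and 0.838. EIF2AK2, which encodes the translation-blocking kinase PKR, stood at 40.3 and 47.9 CPM in NC, 49.7 and 48.8 CPM under si-circ235-1, and 54.0 and 65.3 CPM under si-circ235-2. All 4 libraries of the circ235 siRNAs lay above NC, by 0.16 (SE 0.19, adjusted p = 0.658) and 0.44 (SE 0.19, adjusted p = 0.107), without being called. TLR3, the endosomal sensor, stood at 1.90 and 1.77 CPM in NC, 1.54 and 2.29 CPM under si-circ235-1, and 0.295 and 1.29 CPM under si-circ235-2. The si-circ235-2 libraries lay below NC and far from each other, and the log2 fold change of -1.16 (SE 0.59, adjusted p = 0.155) was called only when si-circ235-2 replicate 2 was left out (-2.61, adjusted p = 0.0289). DHX58, which encodes LGP2, a regulator of RIG-I and MDA5, did not pass the filter, with 3 and 2 counts in NC, 10 and 8 under si-circ235-1, and 2 and 5 under si-circ235-2. OASL, a catalytically inactive relative of the OAS enzymes, had 9 and 4 counts in NC, 18 and 12 under si-circ235-1, and 6 and 2 under si-circ235-2.

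All 5 STAT and IRF regulators were tested, and with si-circ235-2 IRF3 fell and 0 rose. These were 20% and 0%, against 15.7% in each direction among all genes tested. The other 4 were not called against NC by edgeR. With si-circ235-1, 0 of the 5 were called, against 2.24% higher and 3.64% lower among all genes. IRF3, the factor that carries the MAVS signal to the interferon genes (chr19:49659569-49665875), stood at 196 and 118 CPM in NC, 110 and 122 CPM under si-circ235-1, and 79.6 and 62.0 CPM under si-circ235-2. The si-circ235-2 libraries were the lowest, and NC replicate 1 was far above NC replicate 2. IRF3 fell by 1.15 with si-circ235-2 (SE 0.25, adjusted p = 0.00695), and without NC replicate 1 the change was -0.74 (adjusted p = 0.0784). IRF3 shares 734 exonic bases with BCL2L12 on the opposite strand, so reads there cannot be assigned without strand. Such overlaps were also found in IRF1 (1716 bases with C5orf56), TRIM25 (538 bases with AC015912.1) and IFITM3 (287 bases with AC136475.5).

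IRF7, the interferon-inducible partner of IRF3, showed the same split between the NC libraries, with 20.8 and 10.7 CPM in NC, 15.9 and 20.3 CPM under si-circ235-1, and 8.73 and 8.46 CPM under si-circ235-2. The si-circ235-2 libraries were again lowest, at a log2 fold change of -0.87 (SE 0.31, adjusted p = 0.0548), which DESeq2 called (-0.88, adjusted p = 0.0382). STAT2, a subunit of the factor that binds the response element, stood at 25.3 and 28.1 CPM in NC, 23.9 and 26.2 CPM under si-circ235-1, and 41.3 and 37.5 CPM under si-circ235-2. Both si-circ235-2 libraries lay above all others, at 0.56 (SE 0.20, adjusted p = 0.0513) against NC, which DESeq2 called (0.55, adjusted p = 0.0402). IRF9, the DNA-binding subunit of the same factor, had 24 and 35 counts in NC, 14 and 12 under si-circ235-1, and 20 and 17 under si-circ235-2. It was lower in all 4 libraries of the circ235 siRNAs, at -1.18 (SE 0.51, adjusted p = 0.176) and -0.91 (SE 0.49, adjusted p = 0.181), and its 1838 bases of exon all lie within a read-through gene on the same strand. IRF1, an activator also induced by interferon gamma, stood at 54.6 and 51.4 CPM in NC, 59.1 and 64.9 CPM under si-circ235-1, and 47.9 and 42.3 CPM under si-circ235-2. The groups did not overlap, but the log2 fold changes of 0.23 (adjusted p = 0.479) and -0.24 (adjusted p = 0.351) were not called. After the length and GC correction, IRF1 fell by 0.66 with si-circ235-2 (adjusted p = 0.0174).

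In the group of ISG15 conjugation, ubiquitin ligases and ADP-ribosylation, 10 of 10 genes were tested. With si-circ235-2, 1 rose and 1 fell (10% each, against 15.7% in each direction among all genes tested). With si-circ235-1, 0 were called, against 2.24% higher and 3.64% lower among all genes, and 2 had an unadjusted p under 0.05. ISG15 (chr1:1001138-1014540) stood at 79.2 and 46.1 CPM in NC, 59.7 and 84.1 CPM under si-circ235-1, and 34.9 and 25.5 CPM under si-circ235-2. NC and si-circ235-1 overlapped widely, and the si-circ235-2 libraries lay below both. ISG15 fell by 1.05 with si-circ235-2 (SE 0.28, adjusted p = 0.0181). It was no longer called without NC replicate 1 (-0.62, adjusted p = 0.21) or without si-circ235-2 replicate 2 (-0.84, adjusted p = 0.0535), and the change was -0.14 after the length and GC correction (adjusted p = 0.626).

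TRIM25, the ubiquitin ligase that activates RIG-I (chr17:56836387-56914080), stood at 65.9 and 69.4 CPM in NC, 72.7 and 55.4 CPM under si-circ235-1, and 138 and 146 CPM under si-circ235-2. Only the si-circ235-2 libraries stood apart, with a rise of 1.07 (SE 0.19, adjusted p = 0.00363). HERC5, the ligase that attaches ISG15 to proteins, stood at 25.5 and 22.6 CPM in NC, 35.5 and 47.4 CPM under si-circ235-1, and 28.3 and 28.6 CPM under si-circ235-2. Its si-circ235-1 libraries were the highest, and the log2 fold change of 0.79 (SE 0.21) narrowly missed the threshold (adjusted p = 0.0565), which DESeq2 put at 0.81 with an adjusted p of 0.0128. UBE2L6, the conjugating enzyme for ISG15, was below NC with both siRNAs, by log2 values of -0.52 (SE 0.20, adjusted p = 0.144) and -0.32 (SE 0.20, adjusted p = 0.252). USP18, which removes ISG15 and dampens receptor signalling, ranged from 6.30 to 10.6 CPM over all libraries, and HERC6 from 7.64 to 13.3 CPM. TRIM21, a cytosolic antibody receptor and ligase, ranged only from 16.0 to 21.1 CPM.

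PARP9 and DTX3L, which form a complex that modifies histones and enhances interferon signalling, are neighbours on chromosome 3 and share 217 exonic bases on opposite strands. PARP9 stood at 6.43 and 10.2 CPM in NC, 6.86 and 3.46 CPM under si-circ235-1, and 11.9 and 11.7 CPM under si-circ235-2. DTX3L stood at 25.1 and 29 CPM in NC, 20.2 and 20.4 CPM under si-circ235-1, and 36.8 and 42.4 CPM under si-circ235-2. For both genes the si-circ235-2 libraries were the highest of the 6, and for DTX3L the si-circ235-1 libraries were also the lowest. Against NC, neither was called by edgeR, at 0.50 (SE 0.34, adjusted p = 0.286) for PARP9 and 0.55 (SE 0.20, adjusted p = 0.06) for DTX3L with si-circ235-2. PARP14, another ADP-ribosyltransferase nearby, was at 0.54 with si-circ235-2 (SE 0.23, adjusted p = 0.0982) and at -0.04 with si-circ235-1 (SE 0.23, adjusted p = 0.933).

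The 4 IFIT genes, whose proteins bind foreign RNA ends and block translation, were not called with either siRNA. Among all genes tested, 15.7% were called in each direction with si-circ235-2, and 2.24% higher and 3.64% lower with si-circ235-1. None of the 4 had an unadjusted p under 0.05 against NC either, and DESeq2 called 0. IFIT1 stood at 1.57 and 3.73 CPM in NC, 1.89 and 3.46 CPM under si-circ235-1, and 1.48 and 1.00 CPM under si-circ235-2. The si-circ235-1 libraries lay between the NC libraries, at a log2 fold change of 0.02 (SE 0.48, adjusted p = 0.987), and the si-circ235-2 libraries lay below both, at -1.11 (SE 0.51, adjusted p = 0.119). That value was called without the filter on low counts (-1.12, adjusted p = 0.044). IFIT2 stood at 1.64 and 1.53 CPM in NC, 1.82 and 2.40 CPM under si-circ235-1, and 1.53 CPM in both si-circ235-2 libraries. Its log2 fold changes were 0.42 (SE 0.40, adjusted p = 0.561) and -0.05 (SE 0.41, adjusted p = 0.943). IFIT3, which stabilises IFIT1, stood at 4.07 and 5.26 CPM in NC, 6.30 and 5.36 CPM under si-circ235-1, and 5.49 and 5.21 CPM under si-circ235-2. The values of all groups lay close together, at 0.32 (SE 0.29) and 0.20 (SE 0.28) against NC. IFIT5 ranged from 9.26 to 20.6 CPM, with its lowest value in si-circ235-2 replicate 1, and was at -0.50 with si-circ235-2 (SE 0.32, adjusted p = 0.255). When si-circ235-2 replicate 2 was left out, IFIT5 was called at -1.03 (adjusted p = 0.0219).

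The IFITM family held the member called higher with si-circ235-1 and a strong fall with si-circ235-2. IFITM2, which restricts virus entry from endosomes (chr11:307631-315272), stood at 11.3 and 7.88 CPM in NC, 24.9 and 23.4 CPM under si-circ235-1, and 6.84 and 3.59 CPM under si-circ235-2. The 3 groups did not overlap, with si-circ235-1 highest. IFITM2 rose by 1.33 with si-circ235-1 (SE 0.32, adjusted p = 0.0367) and was at -0.89 with si-circ235-2 (SE 0.32, adjusted p = 0.0583). The latter was called under 5 of the 12 alternatives, among them DESeq2 (-0.90, adjusted p = 0.0408), no filter on low counts (-0.90, adjusted p = 0.0164) and leaving out NC replicate 2 (-1.12, adjusted p = 0.0493) or si-circ235-2 replicate 1 (-1.42, adjusted p = 0.00373). The rise was not called without any 1 of the 4 libraries compared, at 1.61 and 1.13 without NC replicate 1 and 2 and at 1.28 and 1.37 without si-circ235-1 replicate 1 and 2 (adjusted p 0.0959, 0.168, 0.104 and 0.206). CD14, the marker that is higher in the same libraries, rose by 1.87 (SE 0.29, adjusted p = 0.0104), and its part in this result was not tested.

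IFITM3 (chr11:319669-327537), the member with the highest level per length in each group, stood at 646 and 395 CPM in NC, 603 and 733 CPM under si-circ235-1, and 191 and 140 CPM under si-circ235-2. NC and si-circ235-1 overlapped, and both si-circ235-2 libraries lay well below. IFITM3 fell by 1.66 with si-circ235-2 (SE 0.27, adjusted p = 0.00285), to 0.317 times the NC level. IFITM1 had 1 to 9 counts per library and did not pass the filter. Of the 50-base stretches of IFITM3 transcripts, 14% also occur in IFITM2, and 21.6% of those of IFITM2 occur in IFITM1. The annotated exons of IFITM1 and IFITM2 share 351 bases on the same strand, so the latter share need not reflect related sequence. Reads could be split between these genes.

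Of the 11 other effectors only 4 passed the filter, and 3 of these fell with si-circ235-2. Among all genes tested, 15.7% were called lower with that siRNA. IFI6, a protein of mitochondria and the endoplasmic reticulum that counters apoptosis (chr1:27666061-27672218), stood at 31.5 and 22.4 CPM in NC, 20.8 and 29 CPM under si-circ235-1, and 6.55 and 5.26 CPM under si-circ235-2. It showed the largest change of the tested members against NC, a fall of 2.19 with si-circ235-2 (SE 0.28, adjusted p = 0.00179) to 0.219 times the NC level, against -0.11 (SE 0.26, adjusted p = 0.837) with si-circ235-1. ISG20, an exonuclease that degrades viral RNA (chr15:88636153-88656483), stood at 11.7 and 7.70 CPM in NC, 14.7 and 16.0 CPM under si-circ235-1, and 5.19 and 4.68 CPM under si-circ235-2. The groups did not overlap, and ISG20 fell by 0.97 with si-circ235-2 (SE 0.28, adjusted p = 0.0224), whereas the 0.66 with si-circ235-1 was not called (SE 0.27, adjusted p = 0.152). IFI35, a leucine zipper protein (chr17:43006725-43014456), stood at 104 and 63.0 CPM in NC, 79.3 and 104 CPM under si-circ235-1, and 50.7 and 36.7 CPM under si-circ235-2. It fell by 0.93 with si-circ235-2 (SE 0.27, adjusted p = 0.0226). ISG20 and IFI35 were no longer called without NC replicate 1 (-0.65, adjusted p = 0.213, and -0.53, adjusted p = 0.243) or without si-circ235-2 replicate 2 (-0.90, adjusted p = 0.0655, and -0.72, adjusted p = 0.0896), and neither was called without TMM factors (-0.70, adjusted p = 0.0726, and -0.66, adjusted p = 0.0546). IFI35 was at -0.31 after the length and GC correction (adjusted p = 0.271).

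The remaining effectors of this group had low counts. MX1, a dynamin-like antiviral GTPase, had 3 and 1 counts in NC, 8 and 21 under si-circ235-1, and 4 and 9 under si-circ235-2. All 4 libraries of the circ235 siRNAs lay above NC, yet at most at 1.17 CPM. In a fit without the filter on low counts, MX1 had a log2 fold change of 2.70 with si-circ235-1 (SE 1.02, unadjusted p = 0.00798, adjusted p = 0.0921), the lowest p with that siRNA among the 10 members that had not passed, of which 0 were called in that fit in any comparison. IFI44, a cytoplasmic protein of unsettled function, had 3 and 5 counts in NC, 4 and 17 under si-circ235-1, and 2 and 2 under si-circ235-2. IFI27 ranged from 1 to 11 counts and BST2, which tethers budding virions, from 0 to 4. SAMD9L, a translation inhibitor, had 0 to 9 counts, and IFI44L and XAF1 had 2 and 1 counts in all libraries together. SAMD9, the paralogue of SAMD9L, passed the filter but varied within groups more than between them, with 0 and 37 counts in the si-circ235-2 libraries. The summed level of the 10 members that did not pass was 3.02 and 1.22 CPM in NC, 3.57 and 4.74 CPM under si-circ235-1, and 1.42 and 1.67 CPM under si-circ235-2.

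The siRNAs differed from each other in more members than either did from NC. Of the 33 members, 7 were called higher and 8 lower with si-circ235-2 than with si-circ235-1, or 21.2% and 24.2%, against 21.1% and 18.6% of all genes tested. The median log2 difference was -0.15 over the members and 0.04 over all genes. Without TMM factors the split was 9 higher and 6 lower, at medians of 0.18 and 0.37, and after the length and GC correction it was 5 higher and 10 lower. The higher members were OAS3 (1.42, adjusted p = 0.000594), MAVS (1.29, adjusted p = 0.000736), TRIM25 (1.15, adjusted p = 0.00145), ADAR (1.06, adjusted p = 0.00177), PARP9 (1.20, adjusted p = 0.0193), DTX3L (0.96, adjusted p = 0.00434) and STAT2 (0.65, adjusted p = 0.0237). OAS3, ADAR and MAVS are in the group of sensors and their adaptor, of which 8 were tested. Of these 8, 4 had a positive and 4 a negative log2 difference, at a median of 0.07. The longest transcripts of the members called higher had a median of 6719 bases, against 1066 bases for those called lower.

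The other 8 called members were lower with si-circ235-2 than with si-circ235-1. They were IFITM2 (-2.22, adjusted p = 0.000957), IFI6 (-2.08, adjusted p = 0.000702), IFITM3 (-2.02, adjusted p = 0.000714), ISG20 (-1.63, adjusted p = 0.00151), ISG15 (-1.25, adjusted p = 0.00598), IRF7 (-1.08, adjusted p = 0.0193), IFI35 (-1.07, adjusted p = 0.00958) and IRF3 (-0.71, adjusted p = 0.0391). The calls of PARP9 (0.77, adjusted p = 0.154), STAT2 (0.72, adjusted p = 0.0791), IRF7 (-0.90, adjusted p = 0.129), ISG15 (-0.99, adjusted p = 0.0688), IFI35 (-0.87, adjusted p = 0.0893) and IRF3 (-0.64, adjusted p = 0.172) were lost without si-circ235-1 replicate 2. Those of STAT2 and IRF3 were also lost without si-circ235-1 replicate 1 (0.58, adjusted p = 0.109, and -0.79, adjusted p = 0.0856), that of STAT2 without si-circ235-2 replicate 1 (0.58, adjusted p = 0.0918), and that of IRF3 without si-circ235-2 replicate 2 (-0.54, adjusted p = 0.176). The length and GC correction ended the calls of STAT2 (0.28, adjusted p = 0.184), PARP9 (0.66, adjusted p = 0.131), DTX3L (0.39, adjusted p = 0.0515) and IRF7 (-0.50, adjusted p = 0.122), and leaving out the TMM factors ended those of IRF3 (-0.38, adjusted p = 0.166) and IRF7 (-0.74, adjusted p = 0.0685).

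The direction of the si-circ235-2 changes went along with transcript length and, more weakly over the members, with GC content. The longest transcripts of the 4 members called higher against NC were 5734 to 11714 bases long, with a median of 6916, and those of the 6 called lower were 787 to 5634 bases long, with a median of 1041. All genes showed the same tendency, with medians of 5364 bases among those called higher and 2058 bases among those called lower. Across the 33 members, the log2 fold change with si-circ235-2 and the log2 length had a Pearson's r of 0.65 and a Spearman's rho of 0.60. Across 14386 genes these were 0.37 and 0.44, and with si-circ235-1 they were -0.19 and -0.12 over the members. Median GC content was 51.6% for the members called higher with si-circ235-2 and 57.9% for those called lower. Among all genes these medians were 46.4% and 57.1%. Pearson's r of the si-circ235-2 log2 fold change with GC content was -0.34 over the members and -0.22 over all genes. The points share the same 4 libraries, and genes are not independent replicates. The longest annotated transcript need not be the one that is expressed.

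After the length and GC correction, r with log2 length was 0.23 over the members with si-circ235-2, against 0.02 over 14386 genes. Over the members it was -0.36 with si-circ235-1 and 0.39 between the siRNAs, against 0.01 over all genes in each. In that fit OAS3 (0.89, adjusted p = 0.00441), TRIM25 (0.54, adjusted p = 0.0183) and ADAR (0.41, adjusted p = 0.0359) were still called higher, at smaller values. IFI6 (-1.65, adjusted p = 0.00332), ISG20 (-1.41, adjusted p = 0.0078), IFITM3 (-1.07, adjusted p = 0.005) and IRF3 (-0.86, adjusted p = 0.0179) were still called lower. OAS3, ADAR, TRIM25, IFITM3 and IFI6 were called in si-circ235-2 against NC under all 12 alternatives tried, including each library left out. What gave rise to the length and GC trends was not tested.

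**Figure D4:**
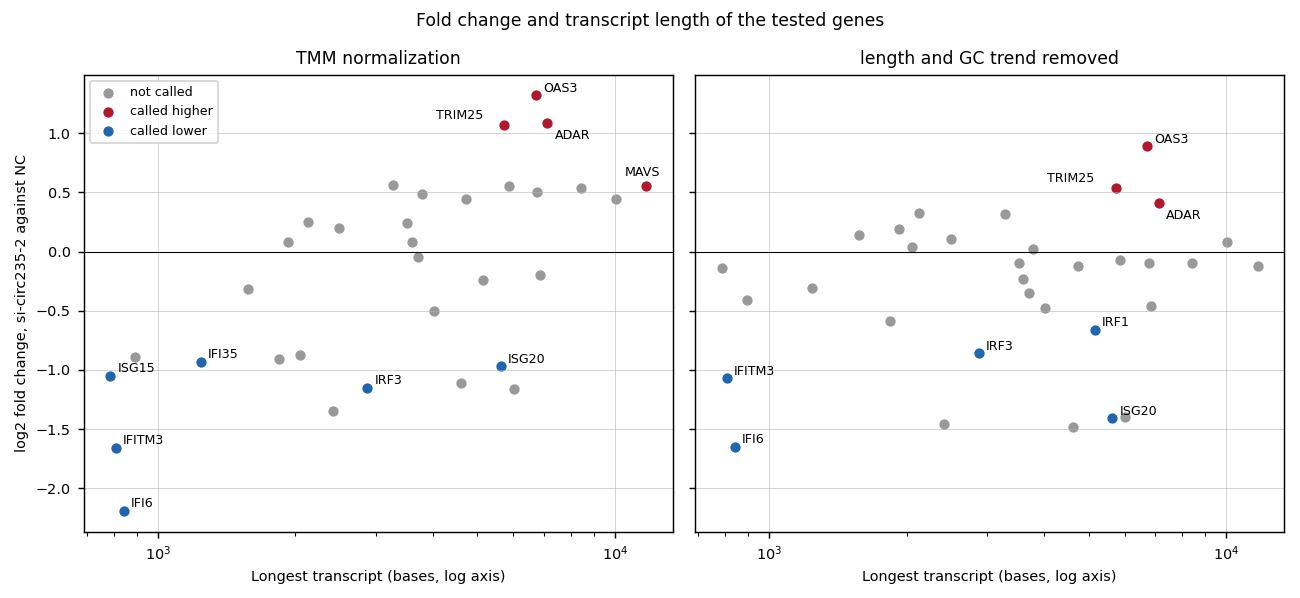
Log2 fold change with si-circ235-2 against NC (vertical axis) and length of the longest transcript in bases (log axis) for the 33 tested members, after TMM normalization (left) and after the length and GC correction (right). Called genes are named, in red where higher and in blue where lower, and MAVS, ISG15 and IFI35 are called on the left only.

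Members with the core were called in both directions with si-circ235-2, where 15.7% of all genes tested were called in each direction. Of the 17 tested members with the core in a promoter window, 1 was called higher and 4 lower with si-circ235-2 against NC, at a median log2 fold change of 0.08. Of the 10 tested members with a window that held no core, 3 were called higher and 1 lower, at a median of 0.12. OAS3 and IFI6, with the largest rise and the largest fall, both held the core shown above. With si-circ235-1 the medians were 0.07 and -0.08, and 0 members with the core were called by edgeR, whereas DESeq2 called HERC5. No test was run on these counts, and paired half-sites at spacings other than 2 bases were not counted as a core.

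Outside the list, the ligands were at or near 0. IFNB1, IFNA1, IFNL1, IFNL2 and IFNL3 had 0 counts in all 6 libraries, which allows 0.143 to 0.21 CPM depending on the library, by counting error alone. IFNE had at most 2 counts per library, and IFNK had 2 counts in 1 library. Of 18 ligands, receptors and JAK-STAT components, 11 were tested, and 0 were called with si-circ235-1 (2 at an unadjusted p under 0.05, and IFNGR2 by DESeq2). The background with that siRNA, for this list and those below, was 2.24% higher and 3.64% lower among all genes tested. With si-circ235-2, 3 rose and 0 fell (27.3% and 0%, against 15.7% of all genes in each direction), among them STAT3 (1.17, adjusted p = 0.00261) and the receptor kinase JAK1 (0.97, adjusted p = 0.00539). The receptor subunit IFNAR1 ranged from 48.3 to 73.6 CPM and was not called.

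Of 21 further genes of nucleic acid sensing and signalling, 17 were tested, and 0 were called with si-circ235-1 (5 at an unadjusted p under 0.05, and TRAF3 by DESeq2). With si-circ235-2, 4 rose and 1 fell (23.5% and 5.88%, against 15.7% in each direction). TRAF6 (1.5, adjusted p = 0.00443) and TRAF3 (1.35, adjusted p = 0.00197), ligases downstream of MAVS and the Toll-like receptors, were among the rises, with the helicase DHX9 (0.98, adjusted p = 0.00523) and the antiviral protein ZC3HAV1 (0.78, adjusted p = 0.0131). TARBP2, a Dicer partner that binds double-stranded RNA, fell by 1.05 (adjusted p = 0.00845). DDX58, which encodes RIG-I, ranged from 26.9 to 52.9 CPM, and both ends of that range came from si-circ235-2.

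Of 13 negative regulators, 12 were tested. With si-circ235-1, SOCS1, the feedback inhibitor of JAK kinases, was the only call by edgeR and fell by 1.55 (SE 0.26, adjusted p = 0.0127), while DESeq2 also called PTPN11. It stood at 21.4 and 27.1 CPM in NC, 9.79 and 6.75 CPM under si-circ235-1, and 16.5 and 16.4 CPM under si-circ235-2, below NC in all 4 libraries. With si-circ235-2, the phosphatase PTPN11 (1.41, adjusted p = 0.00267), the ubiquitin-editing enzyme TNFAIP3 (0.99, adjusted p = 0.0117) and the ligase RNF125 (1.01, adjusted p = 0.0497) rose, and the SUMO ligase PIAS4 fell by 0.97 (adjusted p = 0.00641). These were 25% and 8.33% of the genes tested, against 15.7% in each direction, and RNF125 was not called by DESeq2.

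A list of 30 other interferon-induced genes gave 19 tested. APOL6, a lipoprotein-related cytosolic protein, was the only one called by edgeR with si-circ235-1, with a rise of 0.95 (SE 0.21, adjusted p = 0.0284), and DESeq2 also called SP100. LAMP3 (1.10, adjusted p = 0.00869), TDRD7 (0.84, adjusted p = 0.0177) and TRIM5 (0.78, adjusted p = 0.0312) rose with si-circ235-2, and PARP10 fell by 0.89 (adjusted p = 0.0146). These are 15.8% higher and 5.26% lower of the genes tested, read against the same background of 15.7% in each direction. RSAD2, CMPK2 and CXCL11, which respond strongly to interferon in most cells, had 0 counts in every library, CXCL10 had 2 counts in 1 NC library, and MX2 had at most 3 counts.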

How the data were processed

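Poly(A) RNA of T24 cells was sequenced in 6 libraries. The values deposited by the authors are raw counts per gene, all whole numbers. Per the labels' processing notes, FastQC, cutadapt, STAR and hg38 were used. For the counter, the annotation and all versions the entry is: not given in the sources used here. Unstranded counts cannot separate overlapping antisense genes. Groups and columns came from sample labels and column names, and the sources do not say what separates the biological replicates, so p-values measure the spread between libraries.

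In R 4.3.3, edgeR 4.0.16 was run on all 6 libraries (filterByExpr, TMM, quasi-likelihood test, 1 mean per group, Benjamini-Hochberg adjustment, threshold 0.05). The SE is the log2 fold change divided by the square root of F. GENCODE release 29 (GRCh38) gave coordinates, length and GC content, and matched 99.5% of the identifiers. Alternatives were DESeq2 1.42.0, no TMM, no filter, a replicate block, pairwise fits, each library left out, and removal of a spline trend (5 degrees of freedom) over length and GC content. The edgeR step was tested on simulated data. All 43 members are named, with values per library for those called in any comparison and for 17 fixed genes. In the pathway lists, 1 result is not reported here. The members and lists were chosen with earlier results of these data known. Intervals and limits from counts cover counting error only, and with 2 libraries per group the number of libraries limits precision.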

Additional observations from a re-analysis of the deposited data

Results flagged for a closer look

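In 5 members the siRNAs moved to opposite sides of NC in every library, and the difference between the siRNAs was called by edgeR's quasi-likelihood test (Benjamini-Hochberg adjusted over all genes). How many of all genes tested met this rule was not counted, so whether 5 members are more than the background is not known. By the looser rule of a call between the siRNAs alone, 21.1% of all genes tested were higher and 18.6% lower. For OAS3, MAVS and DTX3L both si-circ235-2 libraries lay above both NC libraries and both si-circ235-1 libraries below, with log2 differences of si-circ235-2 from si-circ235-1 of 1.42 (SE 0.18), 1.29 (SE 0.18) and 0.96 (SE 0.20). For IFITM2 and ISG20 the order was the reverse, with differences of -2.22 (SE 0.33) and -1.63 (SE 0.28). For OAS3 the distance of si-circ235-1 from NC was small (-0.10), so that its order there is within the spread between libraries. With the length and GC trend removed the differences were 0.82 for OAS3, 0.55 for MAVS, -1.88 for IFITM2 and -2.22 for ISG20, all called, and 0.39 for DTX3L, which was not (adjusted p = 0.0515). The cause was not tested.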

How the results depend on the processing

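The number of members called was 3, 13 and 17 with DESeq2 (2 higher and 1 lower with si-circ235-1, 5 and 8 with si-circ235-2, 7 and 10 between the siRNAs), and 3, 12 and 17 with no low-count filter. The members' median log2 fold change without TMM factors was 0.21 in si-circ235-2 against NC and 0.18 between the siRNAs, and after the length and GC correction the latter was -0.38. The replicate block gave 2, 13 and 17 calls. Deviations of same-numbered libraries correlated at -0.0943, 0.149 and 0.139 between the groups. No reference was computed for these values, and whether same-numbered libraries shared a batch was not tested. Leaving out each library in turn gave 0 to 3 members called with si-circ235-1, 5 to 11 with si-circ235-2 and 9 to 17 between the siRNAs. With si-circ235-1 the count was 0 without NC replicate 1 or 2 and without either si-circ235-1 library, where 8, 4, 7 and 3 members had an unadjusted p under 0.05. The 5 calls were left without NC replicate 1, and the 9 without si-circ235-1 replicate 2. The median between the siRNAs ranged from -0.37, without si-circ235-2 replicate 2, to -0.00. MAVS in si-circ235-2 against NC reversed to -0.12 after the length and GC correction. The causes were not tested. A lone library in a group was assumed to vary like the other groups. Depth limits the 10 members under the filter, where 3 counts are 0.143 to 0.21 CPM.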
